A study of Mus musculus with 8 samples.

Results

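A group of 30 genes of Schwann cells, of axons and of neurotrophin signalling was followed in the mesenchyme of developing mouse molars. They were chosen by name and not by a threshold on level, as 14 glial genes (6 of myelin, 6 of the Schwann cell lineage and 2 of adhesion), 8 axonal genes and 8 genes of neurotrophin and GDNF signalling. All 30 were found among the 20926 genes of the table. The study asked how loss of *Ezh2*, which encodes the H3K27 methyltransferase of a Polycomb repressive complex, affects the mesenchyme that forms the molar root. Molars of mice at postnatal day 3, labelled C57BL/6 where the study's methods speak of mixed genetic background, were dissected to remove the epithelium, by the labels, and the mesenchyme was sequenced as RNA. Epithelial genes were nonetheless measured in every library. The control group was 4 libraries of *Ezh2fl/fl* mice, which carry both floxed alleles and no Cre. The other group was 4 libraries of *Osr2KI-Cre;Ezh2fl/fl* mice, in which Cre is expressed from the *Osr2* locus and removes *Ezh2* from cells with a history of *Osr2* expression. Cells with no such history keep *Ezh2*, and the tissue was sequenced whole.

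Schwann cells wrap the axons of peripheral nerves and either myelinate them or hold several thin ones in bundles. Their survival and myelination depend on neuregulin from the axon acting on the receptor pair ErbB2 and ErbB3. Axons of the trigeminal nerve grow towards the tooth in response to neurotrophins and GDNF family ligands made by the dental mesenchyme. The cell bodies of those neurons lie in the trigeminal ganglion, so a molar holds their axons and little of their mRNA.

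Values are the authors' normalized signal, which has no gene-length factor, and each library held 48313044 to 68793592 estimated reads (a value divided by the smallest value of its library, less 1). *Ezh2* itself was 55.0, 38.3, 39.6 and 39.0 in the controls and 35.2, 30.1, 23.2 and 36.0 in *Osr2KI-Cre;Ezh2fl/fl*, so that the groups did not overlap (exact permutation p = 0.0286, two-sided, the smallest that 4 against 4 libraries allow). Its limma adjusted p was 0.235. The ameloblast genes *Enam*, *Amelx* and *Ambn*, which mark enamel epithelium, differed widely within both groups, with *Enam* between 37.1 and 5146.3 in controls and between 23.3 and 2048.1 in *Osr2KI-Cre;Ezh2fl/fl*. *Sox10*, a transcription factor that defines the Schwann cell lineage, was detected but low, at 0.104, 1.46, 0.378 and 0.520 in controls and 0.360, 0.091, 1.03 and 0.181 in *Osr2KI-Cre;Ezh2fl/fl*. It was below the filter on low values. Genes of dental mesenchyme (5 markers) summed to 314 to 408 in controls and 351 to 391 in *Osr2KI-Cre;Ezh2fl/fl*, and 1 of the 5 rose at an adjusted p under 0.05 (*Lhx8*, a homeobox gene, 2.39 times the control mean, limma adjusted p = 0.00509). The 4 osteoblast markers summed to 1082.2 to 1240.6 and 1402.0 to 1843.7, and 1 of them rose (*Ibsp*, bone sialoprotein, 3.65 times the control mean, limma adjusted p = 0.00126). The part of these mesenchymal and bone genes in the differences given for the 30 genes was not tested. The Y-linked *Ddx3y* was 0.0455 and 0.0424 in *Osr2KI-Cre;Ezh2fl/fl* libraries 2 and 3 and 31.2 to 82.6 in the other 6 libraries.

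Of the 30 genes, 1 rose and 1 fell in *Osr2KI-Cre;Ezh2fl/fl* at a limma adjusted p under 0.05. *Uchl1*, a deubiquitinase abundant in neurons, was 1.8 times the control mean, and *Erbb3*, the neuregulin receptor, was 0.733 times it. Of the 30, 21 passed the filter on low values (4 or more libraries had to reach a value of 1) and were tested, and across all 14854 genes tested 1.56% rose and 0.512% fell. Without adjustment, 3 of the 21 were higher at p under 0.05 (*Uchl1*, *Ntf3* and *Ret*), where 8.27% of all tested genes were, and 3 were lower (*Erbb3*, *Ngfr* and *Gdnf*), where 4.87% were. The groups did not overlap for 1 gene that was higher, or 3.33% of the 30 against 5.55% of all genes, and for 2 that were lower (*Erbb3* and *Gdnf*), or 6.67% against 2.65%. These counts are small, and no shift of the 30 genes together is read from them. With no filter, 12 of the 30 had a positive log2 difference and their median was -0.08, beside 11619 of 20926 genes and a median of 0.02. When libraries were weighted by their quality (limma array weights), *Mbp*, *S100b*, *Ngfr*, *Gdnf*, *Gap43*, *Ntf3* and *Ret* passed as well. The share of all tested genes that passed with these weights was not counted, so nothing about these genes is read from those calls. The 9 genes left out by the filter were *Mag*, *Mal*, *Egr2*, *Gfap*, *Nefl*, *Nefm*, *Nefh*, *Prph* and *Nrg1*.

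**Figure D1:**
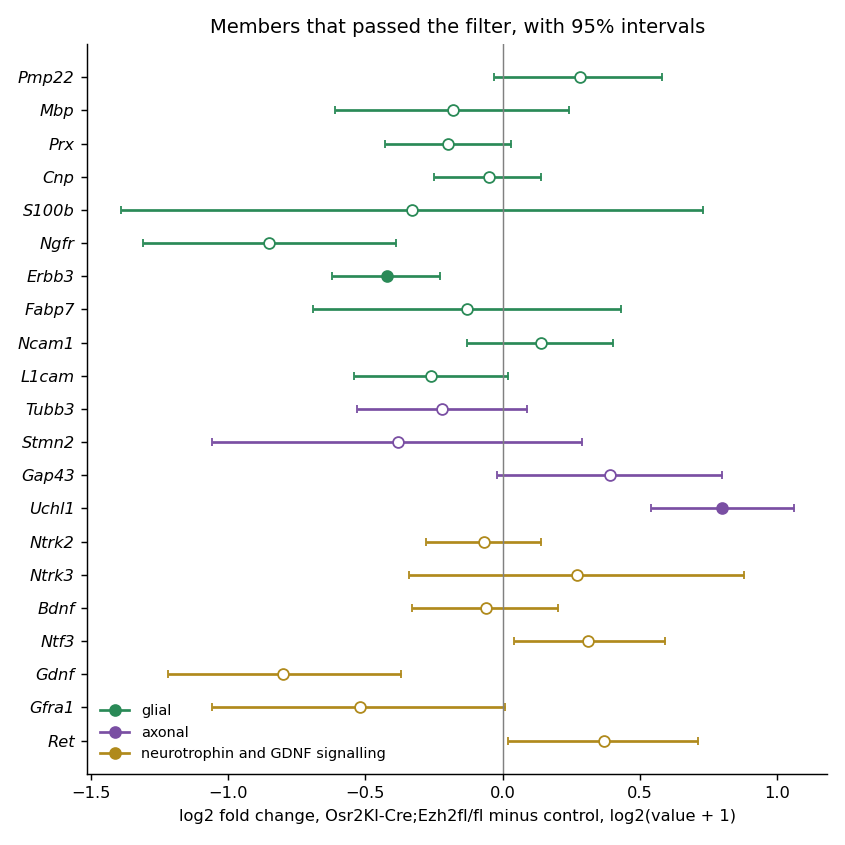
Log2 differences (*Osr2KI-Cre;Ezh2fl/fl* minus control, on log2(value + 1)) of the 21 genes that passed the filter, with 95% limma intervals, colours for the 3 gene groups and filled points for an adjusted p under 0.05. *Uchl1* at 0.80 and *Erbb3* at -0.42 are the filled points.

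*Erbb3*, the receptor through which axonal neuregulin reaches Schwann cells, was the one lineage gene that passed. It was 18.0, 20.5, 20.9 and 20.2 in the controls and 16.2, 13.7, 14.1 and 14.3 in *Osr2KI-Cre;Ezh2fl/fl*, and every control library lay above every other library. The means were 19.9 ± 1.31 and 14.6 ± 1.15 (SD, n = 4 each), a log2 difference of -0.42 (SE 0.09, 95% interval -0.62 to -0.23, limma adjusted p = 0.0388, exact permutation p = 0.0286). In bulk tissue, fewer cells of a type and less RNA per cell cannot be told apart. The gene lies on chromosome 10 (mm10, 128567523 to 128589652, minus strand) and holds the microRNA gene *Mir6917*. *Erbb3* is also expressed in epithelium, and the 4 epithelial marker genes summed to 1494.0 to 3474.2 in controls and 1467.6 to 2039.8 in *Osr2KI-Cre;Ezh2fl/fl*, with 0 of 4 past limma's adjusted threshold and 1 lower with no adjustment. The 4 endothelial markers summed to 290 to 323 and 249 to 275 (0 past the adjusted threshold, 3 lower with no adjustment), and 3 melanocyte markers to 15.4 to 18.4 and 13.8 to 17.6. The part of the endothelium and of melanocytes was not tested. With the epithelial markers as a covariate, an alternative chosen after seeing the data, the log2 difference was -0.35 and the adjusted p 0.149. The ameloblast covariate (-0.39, adjusted p = 0.0757), the Schwann cell covariate (-0.43, adjusted p = 0.0533) and a filter at a value of 10 (-0.42, adjusted p = 0.0503) also ended the call, with little change in the difference. The call was lost without control library 2 (adjusted p = 0.138), 3 (0.166) or 4 (0.115) and without *Osr2KI-Cre;Ezh2fl/fl* library 2 (0.111), 3 (0.0723) or 4 (0.124).

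*Ngfr*, which encodes the p75 neurotrophin receptor carried by immature and non-myelinating Schwann cells and also by dental mesenchyme, was 35, 40.6, 41.9 and 30.1 in the controls and 13.8, 30.1, 18.3 and 20.5 in *Osr2KI-Cre;Ezh2fl/fl*. The groups touched at 30.1. The log2 difference was -0.85 (SE 0.20, 95% interval -1.31 to -0.39) at a limma adjusted p of 0.0777, which missed the threshold, and the exact permutation p was 0.0571. Without *Osr2KI-Cre;Ezh2fl/fl* library 2, the highest of its group, the difference was -1.04 at an adjusted p of 0.0269. With each other library left out it missed the threshold, at adjusted p from 0.104 to 0.255.

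The other lineage genes did not pass. *S100b*, a calcium-binding protein of Schwann cells, was 0.400, 3.90, 3.52 and 4.08 in controls and 1.61, 1.38, 4.91 and 0.723 in *Osr2KI-Cre;Ezh2fl/fl*, a spread of 10.2 times within the controls and 6.79 times within the other group. This gene overlaps the far more abundant *Dip2a* (49.0 to 76.9) on the opposite strand, and whether counting used strand is not stated. *Fabp7*, a lipid-binding protein of immature glia, was 18.1, 15.1, 11.3 and 10.8 against 19.5, 8.58, 9.45 and 14.2. *Egr2*, the transcription factor that drives myelination, held 10 to 33 estimated reads in controls and 7 to 12 in *Osr2KI-Cre;Ezh2fl/fl* (exact permutation p = 0.0857). *Gfap*, a filament protein of non-myelinating Schwann cells, held 29 to 46 and 25 to 54 reads. At such counts only large differences could have been seen.

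None of the 6 myelin genes passed limma's test, with or without adjustment. *Pmp22*, a protein of compact myelin that many mesenchymal cells also make, was the highest, at 274, 239, 169 and 221 in controls and 294, 283, 252 and 252 in *Osr2KI-Cre;Ezh2fl/fl*. Its log2 difference was 0.28 (95% interval -0.03 to 0.58, limma adjusted p = 0.446). *Mbp*, the basic protein of compact myelin, was 19.0, 25.3, 25.3 and 32.4 against 24.1, 17.8, 29.5 and 18.2. *Prx*, the periaxin that anchors myelinating Schwann cells, was 18.1 to 21.2 in controls and 14.1 to 18.6 in *Osr2KI-Cre;Ezh2fl/fl*, with a log2 difference of -0.20 (95% interval -0.43 to 0.03). *Cnp*, a phosphodiesterase of non-compact myelin, was the steadiest of the 30, between 11.3 and 14.3 in all libraries. It overlaps the far more abundant *Dnajc7* (158 to 170) on the opposite strand, and whether counting used strand is not stated. *Mag*, an adhesion protein facing the axon, held 16 to 30 and 17 to 28 reads, and *Mal*, a proteolipid of myelin membranes, 4 to 30 and 15 to 50.

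The adhesion genes overlapped between groups. *Ncam1*, the neural cell adhesion molecule, was 36.6, 54.8, 45.4 and 45.1 in controls and 44.7, 54.7, 50.6 and 48.7 in *Osr2KI-Cre;Ezh2fl/fl*. *L1cam*, which joins axons to each other and to Schwann cells, was 4.10, 5.45, 3.89 and 4.54 against 4.21, 3.31, 2.97 and 3.88, with a log2 difference of -0.26 (95% interval -0.54 to 0.02, limma adjusted p = 0.441). Its lowest values were in the libraries low in *Ddx3y*, and the part of that in an X-linked gene was not tested.

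**Figure D2:**
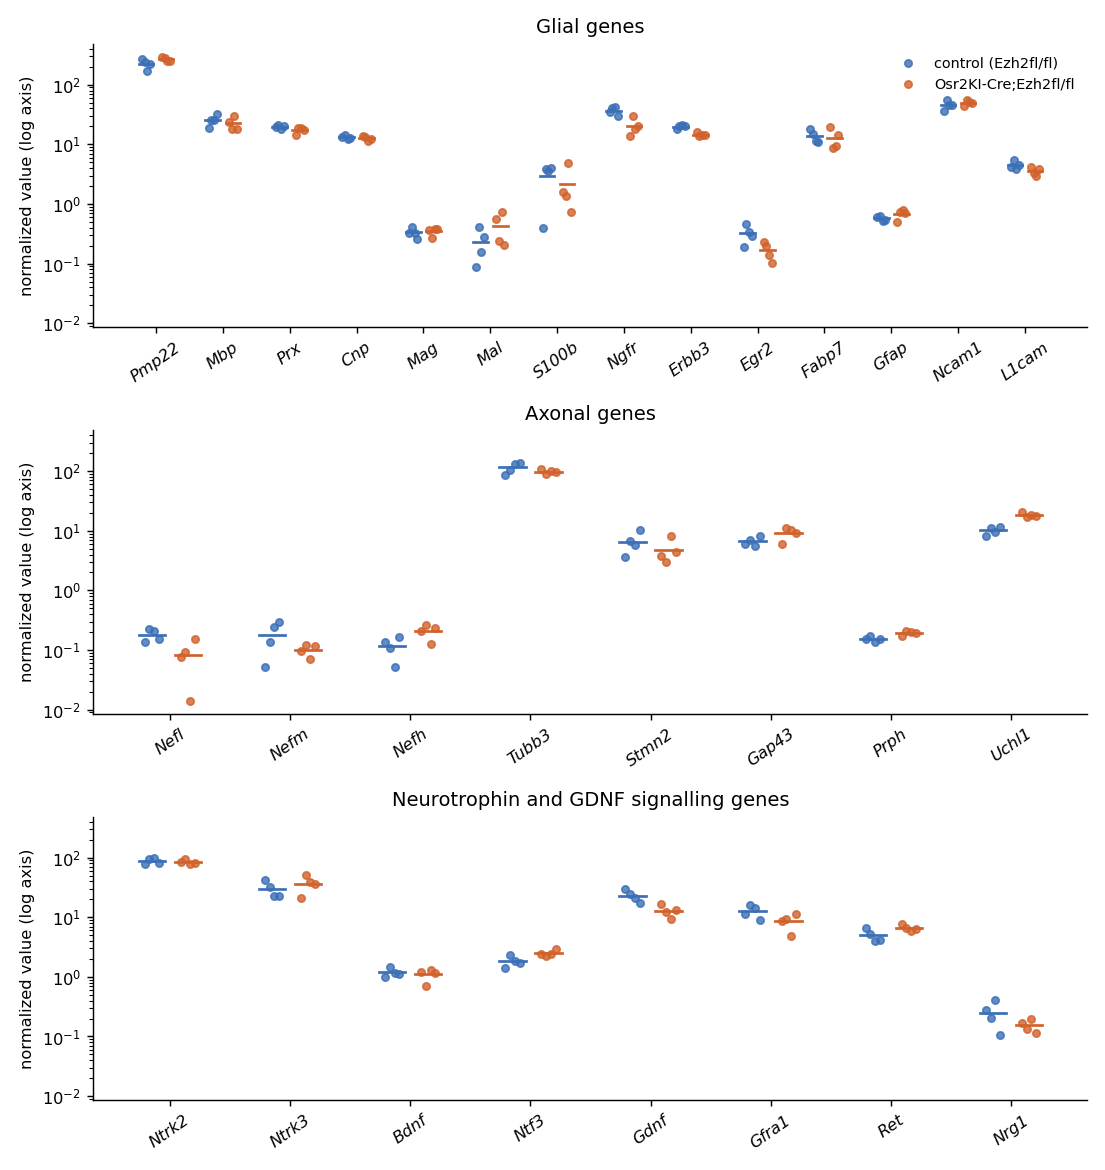
Value of each of the 30 genes in each of the 8 libraries, by gene group, on a log axis, with lines at the group means. The glial and neurotrophin genes overlap between groups apart from *Erbb3* and *Gdnf*, and *Uchl1* is the axonal gene whose groups do not.

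*Uchl1*, a ubiquitin hydrolase that is among the most abundant proteins of neurons, was the one gene of the 30 that rose. It was 8.23, 11.3, 9.53 and 11.8 in the controls and 20.3, 17.1, 18.2 and 18.0 in *Osr2KI-Cre;Ezh2fl/fl*, with a clear gap between the groups. The means were 10.2 ± 1.63 and 18.4 ± 1.36 (SD, n = 4 each), a log2 difference of 0.80 (SE 0.12, 95% interval 0.54 to 1.06, limma adjusted p = 0.00895, exact permutation p = 0.0286). It passed with each library left out in turn, with adjusted p between 0.0176 and 0.0425. The gene lies on chromosome 5 (mm10, 66676091 to 66687234, plus strand), and the antisense gene *Uchl1os* overlaps its start, so reads of the pair cannot be told apart where strand was not used. The 5 markers of sensory neuron cell bodies summed to 3.94 to 4.98 in controls and 4.56 to 5.61 in *Osr2KI-Cre;Ezh2fl/fl*. Of them 0 passed limma's adjusted threshold and 1 was higher with no adjustment. Which cells of the tissue made the RNA of *Uchl1* and the other axonal genes was not tested.

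The 250 bases before the RefSeq start of *Uchl1* are shown because it was called, and those of *Gdnf* because its groups did not overlap, a choice made after its values were seen. *Erbb3* was called too, but no RefSeq window was matched for it. CpG pairs, which are dense in many promoters that Polycomb complexes mark, are in capitals (RefSeq, GRCm38.p6, plus strand).
*Uchl1* chr5:66675871-66676120: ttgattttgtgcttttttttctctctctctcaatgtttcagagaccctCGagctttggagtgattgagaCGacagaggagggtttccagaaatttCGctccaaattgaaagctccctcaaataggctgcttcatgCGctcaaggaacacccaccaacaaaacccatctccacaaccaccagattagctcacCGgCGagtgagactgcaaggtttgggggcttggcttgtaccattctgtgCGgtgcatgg
*Gdnf* chr15:7809798-7810047: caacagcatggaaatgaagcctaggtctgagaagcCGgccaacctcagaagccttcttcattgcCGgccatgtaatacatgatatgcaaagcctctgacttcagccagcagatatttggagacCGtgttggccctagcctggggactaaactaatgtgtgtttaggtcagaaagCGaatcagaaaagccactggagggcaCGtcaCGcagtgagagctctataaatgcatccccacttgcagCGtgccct
*Gdnf* chr15:7813477-7813726: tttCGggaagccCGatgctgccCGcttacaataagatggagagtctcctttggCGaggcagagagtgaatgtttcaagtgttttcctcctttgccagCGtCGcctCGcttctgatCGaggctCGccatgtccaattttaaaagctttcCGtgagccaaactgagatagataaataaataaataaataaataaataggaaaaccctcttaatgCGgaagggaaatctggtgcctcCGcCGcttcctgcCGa
The *Uchl1* window held 7 CpG pairs at 0.471 of the number its base content gives, and the *Gdnf* windows held 7 and 14, at 0.434 and 1.02. RefSeq windows were matched for 19 of the 30 genes, 37 windows in all, of which 13 (35.1%) reached a CpG ratio of 0.6, against 34.0% of 32851 windows. Genes with several windows, such as *Bdnf*, *Egr2* and *Pmp22*, count more than once in these shares. On either strand, ACAAAG (Sox factors) was in 10.8% of the 37 windows and 16.5% of all, GCGTGGG (Egr factors) in 5.41% and 4.30%, and TATAAA in 5.41% and 12.4%. The first *Gdnf* window holds TATAAA and the *Uchl1* window none of the motifs.

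No other axonal gene passed. *Tubb3*, the neuronal beta-tubulin, was 87.9, 106, 133 and 139 in controls and 107, 89.6, 100 and 98.3 in *Osr2KI-Cre;Ezh2fl/fl*. It lies within *Gm20388* on the same strand, which was 115 to 153, so its reads could be shared. *Stmn2*, a regulator of microtubules in growing axons, was 3.68, 6.71, 5.71 and 10.2 against 3.72, 3.00, 8.11 and 4.44. *Gap43*, a protein of growth cones, was 5.96, 7, 5.50 and 8.29 against 6.07, 11.1, 10.5 and 9.15, with a log2 difference of 0.39 (95% interval -0.02 to 0.80, limma adjusted p = 0.412). The neurofilament genes, whose mRNA stays mostly in cell bodies, were close to the floor of 3 estimated reads. *Nefl* held 7 to 16 reads in controls and 0 to 11 in *Osr2KI-Cre;Ezh2fl/fl*, *Nefm* 2 to 18 and 4 to 8, and *Nefh* 2 to 10 and 8 to 17. *Prph*, a filament of small sensory neurons, held 7 to 12 and 8 to 14. *Nefl* and *Nefm* overlap on opposite strands.

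Among the ligands, *Gdnf*, the founding member of its family, was 29.4, 24.5, 20.9 and 17.6 in the controls and 16.7, 12.4, 9.21 and 13.4 in *Osr2KI-Cre;Ezh2fl/fl*. The lowest control lay just above the highest library of the other group. The means were 23.1 ± 5.03 and 12.9 ± 3.07 (SD, n = 4 each), a log2 difference of -0.80 (SE 0.19, 95% interval -1.22 to -0.37, exact permutation p = 0.0286) with a limma adjusted p of 0.0745, which missed the threshold. The 2 odontoblast markers were also lower in mean and did not pass: *Dspp* was 0.521 and *Dmp1* 0.790 times control (limma adjusted p = 0.256 and 0.564), and their part in the *Gdnf* and *Ngfr* values was not tested. Without *Osr2KI-Cre;Ezh2fl/fl* library 1 the adjusted p was 0.0439, and with the ameloblast genes as a covariate the difference was -1.03 at an adjusted p of 0.00585. With the epithelial markers as a covariate, chosen after seeing the data, the difference was -1.01 at an adjusted p of 0.0391. With each other library left out the adjusted p lay between 0.0686 and 0.195, and with the Schwann cell covariate it was 0.108. *Ntf3*, neurotrophin 3, was 1.39, 2.35, 1.87 and 1.71 against 2.41, 2.21, 2.40 and 2.99 (log2 difference 0.31, limma adjusted p = 0.308). *Bdnf* was 1.01 to 1.45 and 0.713 to 1.29, and *Nrg1*, the axonal neuregulin, held 6 to 23 and 8 to 13 reads.

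Among the receptors, none passed. *Gfra1*, the co-receptor that binds GDNF, was 11.2, 15.8, 14.4 and 8.87 in controls and 8.61, 9.48, 4.92 and 11.2 in *Osr2KI-Cre;Ezh2fl/fl* (log2 difference -0.52, 95% interval -1.06 to 0.01, limma adjusted p = 0.391). *Ret*, the kinase that signals for GDNF, was 6.72, 5.15, 3.97 and 4.11 against 7.81, 6.52, 5.80 and 6.38 (0.37, 95% interval 0.02 to 0.71, limma adjusted p = 0.339). *Ntrk2*, the BDNF receptor, was 76.9 to 99.4 in all libraries, and *Ntrk3*, the neurotrophin 3 receptor, 21 to 51.7. The values of both sum full-length and truncated isoforms.

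**Figure D3:**
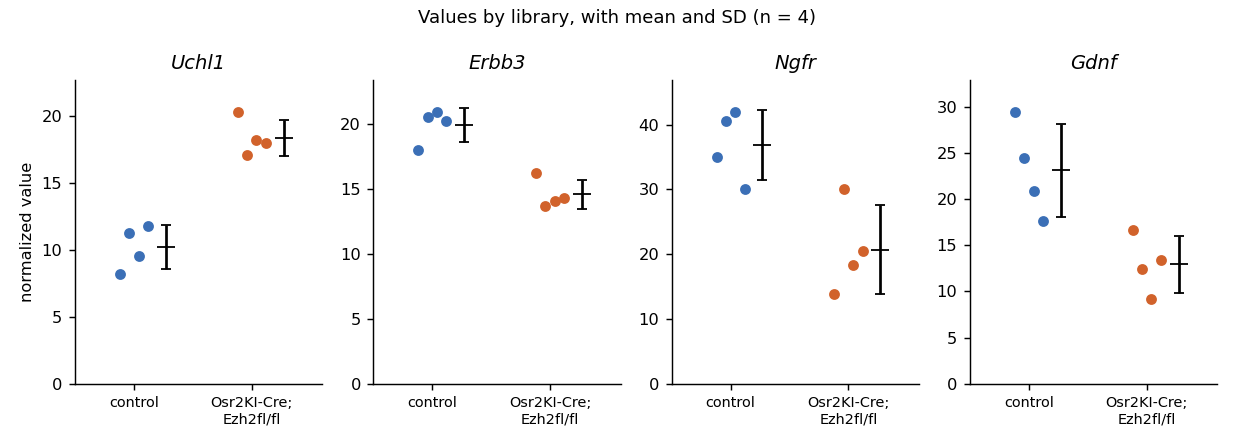
Values of *Uchl1*, *Erbb3*, *Ngfr* and *Gdnf* in each library (points) with group means and SD. *Uchl1* lies higher in all 4 *Osr2KI-Cre;Ezh2fl/fl* libraries, *Erbb3* and *Gdnf* lower, and *Ngfr* touches at 30.1.

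Levels per kb of exon, which allow genes to be compared, ranged from 105 for *Pmp22* and 57.6 for *Tubb3* to 0.0242 for *Nefm* and 0.0195 for *Nrg1*, around a median of 2.54 over 20055 genes. Divided by the longest transcript in place of all exons, *Nrg1* was 0.0373, *Nefm* 0.0381, *Ntrk2* 9.91 in place of 4.49 and *Mbp* 4.99 in place of 2.83. *Fabp7* (10.7), *Uchl1* (8.77), *Ngfr* (8.35) and *Gdnf* (4.90) were above that median and *Erbb3* (2.86) near it. *Sox10* (0.169) was far below it, and the highest glial genes of the list were therefore not matched by this defining gene of the lineage.

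**Figure D4:**
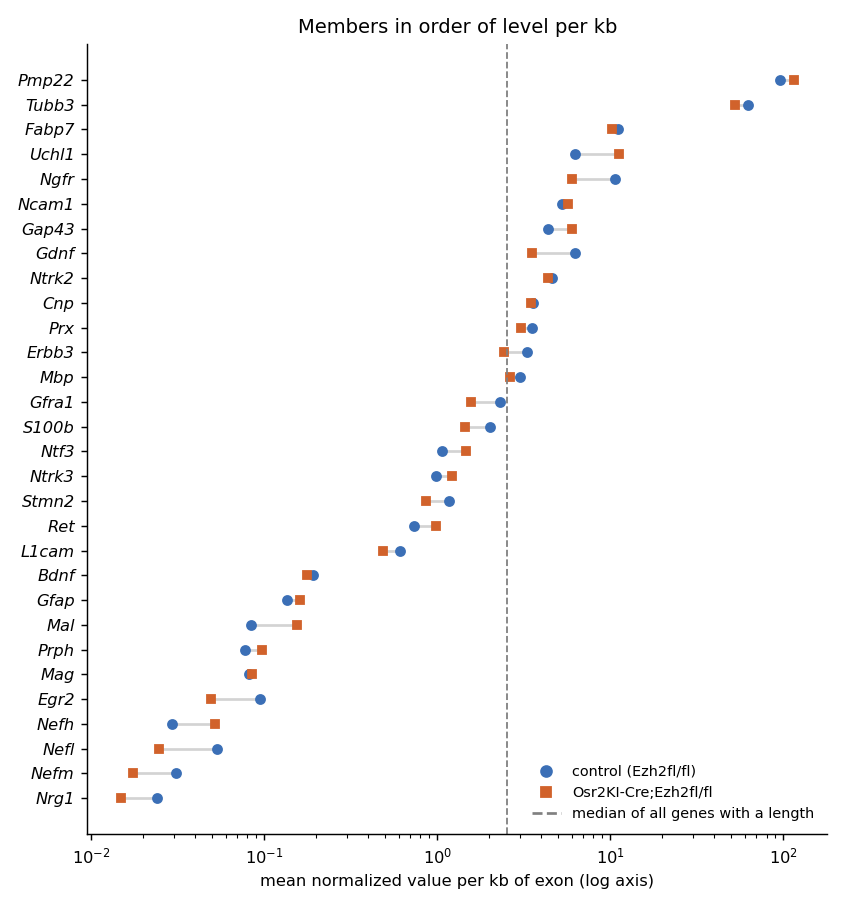
Mean normalized value per kb of exon in controls (circles) and *Osr2KI-Cre;Ezh2fl/fl* (squares) on a log axis, in order of the mean over 8 libraries, with the median of all genes (2.54) dashed. *Pmp22* and *Tubb3* are the highest and *Nefm* and *Nrg1* the lowest.

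Some values followed the order of the ameloblast genes. In order of rising *Enam*, *S100b* was 0.723, 1.38, 0.400, 1.61, 3.90, 4.91, 3.52 and 4.08, and *Stmn2* was 4.44, 3.00, 3.68, 3.72, 6.71, 8.11, 5.71 and 10.2. *Mbp* was 18.2, 17.8, 19.0, 24.1, 25.3, 29.5, 25.3 and 32.4 in that order, and *Tubb3* was highest, at 133 and 139, in the 2 libraries of highest *Enam*. Over the same order *Uchl1* was 18.0, 17.1, 8.23, 20.3, 11.3, 18.2, 9.53 and 11.8. The 4 libraries of highest *Enam* held the 4 highest values of *S100b*, *Stmn2* and *Mbp*, and of the Schwann cell gene *Sox10* (0.378 to 1.46), but not of *Uchl1*. Reads of *S100b* could include those of *Dip2a*, which overlaps it on the opposite strand. Other genes ran the opposite way: the 4 libraries of lowest *Enam* held the 4 highest values of *Ret* (6.38 to 7.81), and *Pmp22* was lowest, at 169 and 221, in the 2 libraries of highest *Enam*. The libraries of highest *Enam* were mostly controls and those of lowest *Enam* mostly *Osr2KI-Cre;Ezh2fl/fl*, so this order and genotype cannot be fully told apart. The genes shown were picked after their values were seen, and the share of all genes that follow the order was not counted. The part of epithelial or of Schwann cell content in these values was not tested.

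**Figure D5:**
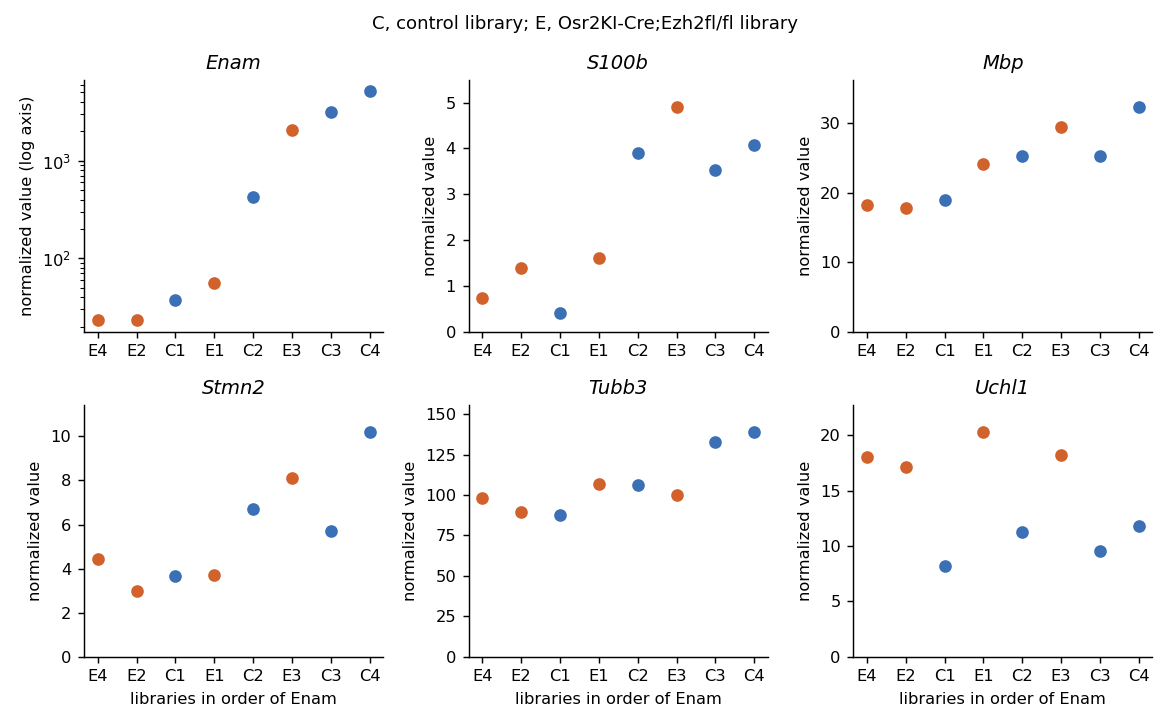
Normalized values of *Enam* (log axis), *S100b*, *Mbp*, *Stmn2*, *Tubb3* and *Uchl1* in the 8 libraries in order of *Enam*, which runs from 23.3 to 5146.3 (C, control and E, *Osr2KI-Cre;Ezh2fl/fl*). *S100b* and *Stmn2* are higher in the 4 libraries on the right.

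Other genes of the same pathways, listed by function, gave 55 genes in the table and 34 that passed the filter, of which 2 rose and 1 fell (1.56% and 0.512% of all tested genes did). *Fxyd1*, a regulator of the sodium pump, was 9.54, 12.8, 11.1 and 12 in controls and 18.4, 16.1, 18.6 and 16.6 in *Osr2KI-Cre;Ezh2fl/fl* (log2 difference 0.58, limma adjusted p = 0.0220). *Gfra4*, the co-receptor for persephin, was 4.49 to 5.84 and 7.23 to 8.26 (0.49, limma adjusted p = 0.0368, and 0.0601 with no filter). *Nrg2*, a neuregulin ligand below the filter and named after its values were seen, held 10 to 11 estimated reads in controls and 21 to 34 in *Osr2KI-Cre;Ezh2fl/fl* (log2 difference 0.25 with no filter, limma adjusted p = 0.0382). *Map1b*, a microtubule protein of growing axons, was 164, 154, 178 and 172 against 101, 130, 136 and 115 (-0.47, limma adjusted p = 0.0423). The groups did not overlap for 10 of the 55 that were higher (18.2%, against 5.55% of all genes) and 1 that was lower (1.82%, against 2.65%).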

How the data were processed

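RNA-seq of molar mesenchyme was analysed in 8 libraries, grouped by the genotype in the labels (4 each). The study's methods name TopHat and RPKM on mm10, while the submitters' processing notes list CASAVA 1.8.2, STAR 2.5.3a and Partek, so the aligner is uncertain. The deposited values are a normalized signal per gene by the authors, with an offset and no length factor: 61.2% of low values were whole multiples of the smallest (tolerance 0.01). Each library held 48313044 to 68793592 estimated reads.

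Values were tested as log2(value + 1) with limma 3.58.1 (trend, R 4.3.3) on the 14854 genes that reached a value of 1 in 4 or more libraries, adjusted by Benjamini-Hochberg at 0.05, beside exact two-sided permutation tests over 70 arrangements. The fold scale understates changes of low genes. The script was tested on simulated data. Lengths and loci came from GENCODE M21 (GRCm38). The labels do not say that libraries came from separate mice, and the methods give both 4 samples a group, as the table has, and 3 sequenced pairs, so p-values measure the spread between these samples, which may be technical.

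The genes and lists were chosen with earlier results of these data known. All 30 are named, and of other lists *Sox10*, 3 ameloblast genes and any gene with an adjusted p under 0.05. Some other genes that the rule names are not reported here. Alternatives changed the pseudocount, filter, scaling, variance model, covariates, replicate block, each library left out and, for levels per kb, the gene length.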

Additional observations from a re-analysis of the deposited data

Results flagged for a closer look

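*S100b* in control library 1 was 0.400, far below the 3.52 to 4.08 of the other controls. That is 1 such sample among 60 groups of 4 libraries (30 genes in 2 groups), where chance gives about 3.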

How the results depend on the processing

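Of 515 alternative values of the 30 genes' log2 differences, 479 kept their direction and side of the threshold. Most of the genes were not called at the start, so for them staying uncalled with the same sign counts as kept. *Erbb3* lost its call in 12 of 24 alternatives and *Uchl1* in 2 of 24. The counts at an adjusted p under 0.05 were 1 higher and 1 lower. Array weights gave 4 (*Uchl1*, *Gap43* 0.46, *Ntf3* 0.41, *Ret* 0.39) and 5 (*Erbb3*, *Ngfr* -0.87, *Gdnf* -0.72, *Mbp* -0.43 and *S100b* -1.18, where the unweighted value was -0.33), and with no adjustment 6 and 9 in place of 3 and 3. How many of all tested genes passed with array weights was not counted. A filter at a value of 10 gave 0 lower (1 higher with no adjustment), and the Schwann cell covariate gave 0 lower, although the *Erbb3* difference was -0.43 there and -0.42 without it. Same-numbered libraries did not deviate together (correlations -0.34, -0.08, 0.22 and -0.43), and with the replicate block the counts were 0 and 0 (*Uchl1* adjusted p = 0.0735, *Erbb3* 0.236), as they were with the block and no filter, which was added after seeing the data. With no adjustment, 5 were lower with no filter, with quantile normalization (1 higher), with the ameloblast covariate and with voom and no filter (added), and 1 was higher with the epithelium covariate (added). Leaving out 1 library gave 1 to 1 higher and 0 to 2 lower, and with no adjustment 1 to 3 and 3 to 5. Directions reversed for *Mbp* (0.06 with the ameloblast and 0.11 with the epithelium covariate), *S100b* (0.28 and 0.34), *Fabp7* (0.06 with array weights, 0.00 without control library 1, 0.03 without *Osr2KI-Cre;Ezh2fl/fl* library 2, and from -0.34 over all libraries left out), *Bdnf* (-0.11 to 0.03 over libraries left out, positive without *Osr2KI-Cre;Ezh2fl/fl* library 2) and, with the epithelium covariate, *Tubb3* (0.03), *Stmn2* (0.02) and *Ntrk3* (-0.16). The cause was not tested. Genes under about 50 estimated reads could show only large differences.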
